A study of Mus musculus with 53 samples.

Results

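The MHC class II antigen presentation genes examined here were 7 genes chosen by name: *H2-Aa*, *H2-Ab1*, *H2-Eb1*, *Cd74*, *Ciita*, *H2-DMa* and *H2-DMb1*. All 7 were found among the 49568 gene rows of each sample and all 7 passed the filter on low values in every comparison, so every member is accounted for. RNA from sciatic nerve (SCN) was sequenced in 53 samples of male C57BL/6J mice in 8 groups. SD mice received the standard (control) diet, with 13% of its energy as fat by the series description, whereas the study's diet list gives another share. HFD mice, a model of prediabetes, received a high-fat diet (HFD) with 60% of its energy as fat from 5 weeks of age. HFD-STZ mice, a model of type 2 diabetes, received the same diet and, at 12 weeks, low doses of streptozotocin (STZ, a toxin of pancreatic beta cells), 75 mg/kg and, 3 days later, 50 mg/kg. In the dietary reversal (DR) groups, HFD-DR and HFD-STZ-DR, mice were returned to the control diet at 16 weeks for 8 weeks. At 16 weeks of age, 5 nerves came from SD, 7 from HFD and 5 from HFD-STZ mice. At 24 weeks, 8 were from SD, 7 from HFD and 8 from HFD-STZ mice, and the reversal groups gave 7 (HFD-DR) and 6 (HFD-STZ-DR). All groups were of the same strain and sex, and whether each sample was a single mouse is not given in the sources used here, so p-values measure the spread between these samples.

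MHC class II molecules are pairs of an alpha and a beta chain that carry peptides from engulfed proteins to the cell surface, where CD4+ T cells read them. In the mouse strain used here the chains are I-A, made of the products of *H2-Aa* and *H2-Ab1*, while *H2-Eb1* encodes the beta chain of I-E, whose alpha chain C57BL/6 mice do not make. *Cd74* encodes the invariant chain, which fills the groove of a new class II molecule until proteases remove it, and *H2-DMa* and *H2-DMb1* encode H2-DM, which exchanges the last piece of the invariant chain for a peptide. *Ciita* encodes the transactivator on which class II transcription depends. Dendritic cells, B cells and macrophages, including the macrophages that reside in peripheral nerve, are the usual carriers of class II.

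In the GENCODE M21 annotation of GRCm38, 5 of the 7 genes lie in the MHC on chromosome 17, with *H2-DMa* at chr17:34119541-34139101, *H2-DMb1* at chr17:34153072-34160230, *H2-Ab1* at chr17:34257689-34269419 and *H2-Eb1* at chr17:34305867-34316674 on the plus strand, and *H2-Aa* at chr17:34282744-34287823 on the minus strand. *Cd74* and *Ciita* lie on other chromosomes. Shared sequence was looked for in the longest protein-coding transcript of each member only. Of the stretches of 100 bases in that of *H2-DMb1*, 179 of 1305 (13.7%) also occurred in *H2-DMb2*, so its reads may be split between these genes. No such stretch of the transcripts examined for the other 6 genes occurred in any other gene. Over the exons of all transcripts, *Brd2* on the opposite strand covers 10.4% of the exon bases of *H2-DMa*, and *Dexi* covers 3.45% of those of *Ciita*. As the study describes libraries without strand, reads in these overlaps cannot be told apart.

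The classical promoters of this family share short boxes at a set spacing, the X box bound by RFX proteins and the Y box bound by NF-Y, on which CIITA is assembled. To show this shared layout, 100 bases upstream of the RefSeq start of 4 genes are printed below from RefSeq promoter sequences of GRCm38.p6, 5′ to 3′ on the strand of the gene, with TGATTGG (the Y box) and, where the pair was found, GNAAC (a part of the X box) in capitals. They are *H2-Aa* (chr17:34287834-34287933, minus strand), *H2-Eb1* (chr17:34305746-34305845, plus strand), *H2-DMb1* (chr17:34153068-34153167, plus strand) and, for comparison with its near copy, *H2-DMb2* (chr17:34145097-34145196, plus strand). The RefSeq start of *H2-DMb1* lies inside the GENCODE gene given above, so nearly all of its printed stretch falls within that gene.
H2-Aa: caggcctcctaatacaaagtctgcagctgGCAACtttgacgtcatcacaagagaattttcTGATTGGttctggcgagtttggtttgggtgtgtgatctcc
H2-Eb1: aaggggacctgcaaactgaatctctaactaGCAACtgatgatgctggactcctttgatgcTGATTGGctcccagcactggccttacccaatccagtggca
H2-DMb1: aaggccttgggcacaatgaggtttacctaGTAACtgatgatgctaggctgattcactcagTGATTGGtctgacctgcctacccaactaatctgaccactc
H2-DMb2: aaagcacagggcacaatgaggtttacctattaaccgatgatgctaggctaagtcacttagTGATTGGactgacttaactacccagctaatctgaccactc
GNAAC followed 25 to 35 bases later by TGATTGG, a range chosen after the sequences were seen, was searched on both strands of windows of 300 bases around gene starts. The pair occurred in 106 of 32851 windows of all genes (0.323%) and in 6 of the 9 windows of class II genes, which belong to 8 of the 13 class II genes looked for. Of the 4 members with a window, *H2-Aa*, *H2-Eb1* and *H2-DMb1* held the pair, and the 2 windows of *H2-DMa* held neither the pair nor TGATTGG. The Y box letters alone occurred in 7.82% of all windows and in 7 of the 9. In *H2-DMb2* TGATTGG was present, but the letters GNAAC were not found at that distance. A match describes the letters only.

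The authors deposited log2 values, and how they normalized them is not given in the sources used here. Depth per sample cannot be read from them, so the spread between samples stands for the error. They do not allow levels to be compared between genes of different length. As a check of the labelled tissue, the Schwann cell gene *Mbp*, which encodes myelin basic protein, was at log2 values of 19.28 to 20.63. Skeletal muscle genes ranged widely, *Myh4* from 5.20 to 19.97, and adipocyte genes too, *Adipoq* from 8.34 to 14.60. None of the 56 cell type markers examined was at 0 in any sample. The plot of the values by group shows each member in every sample.

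**Figure D1:**
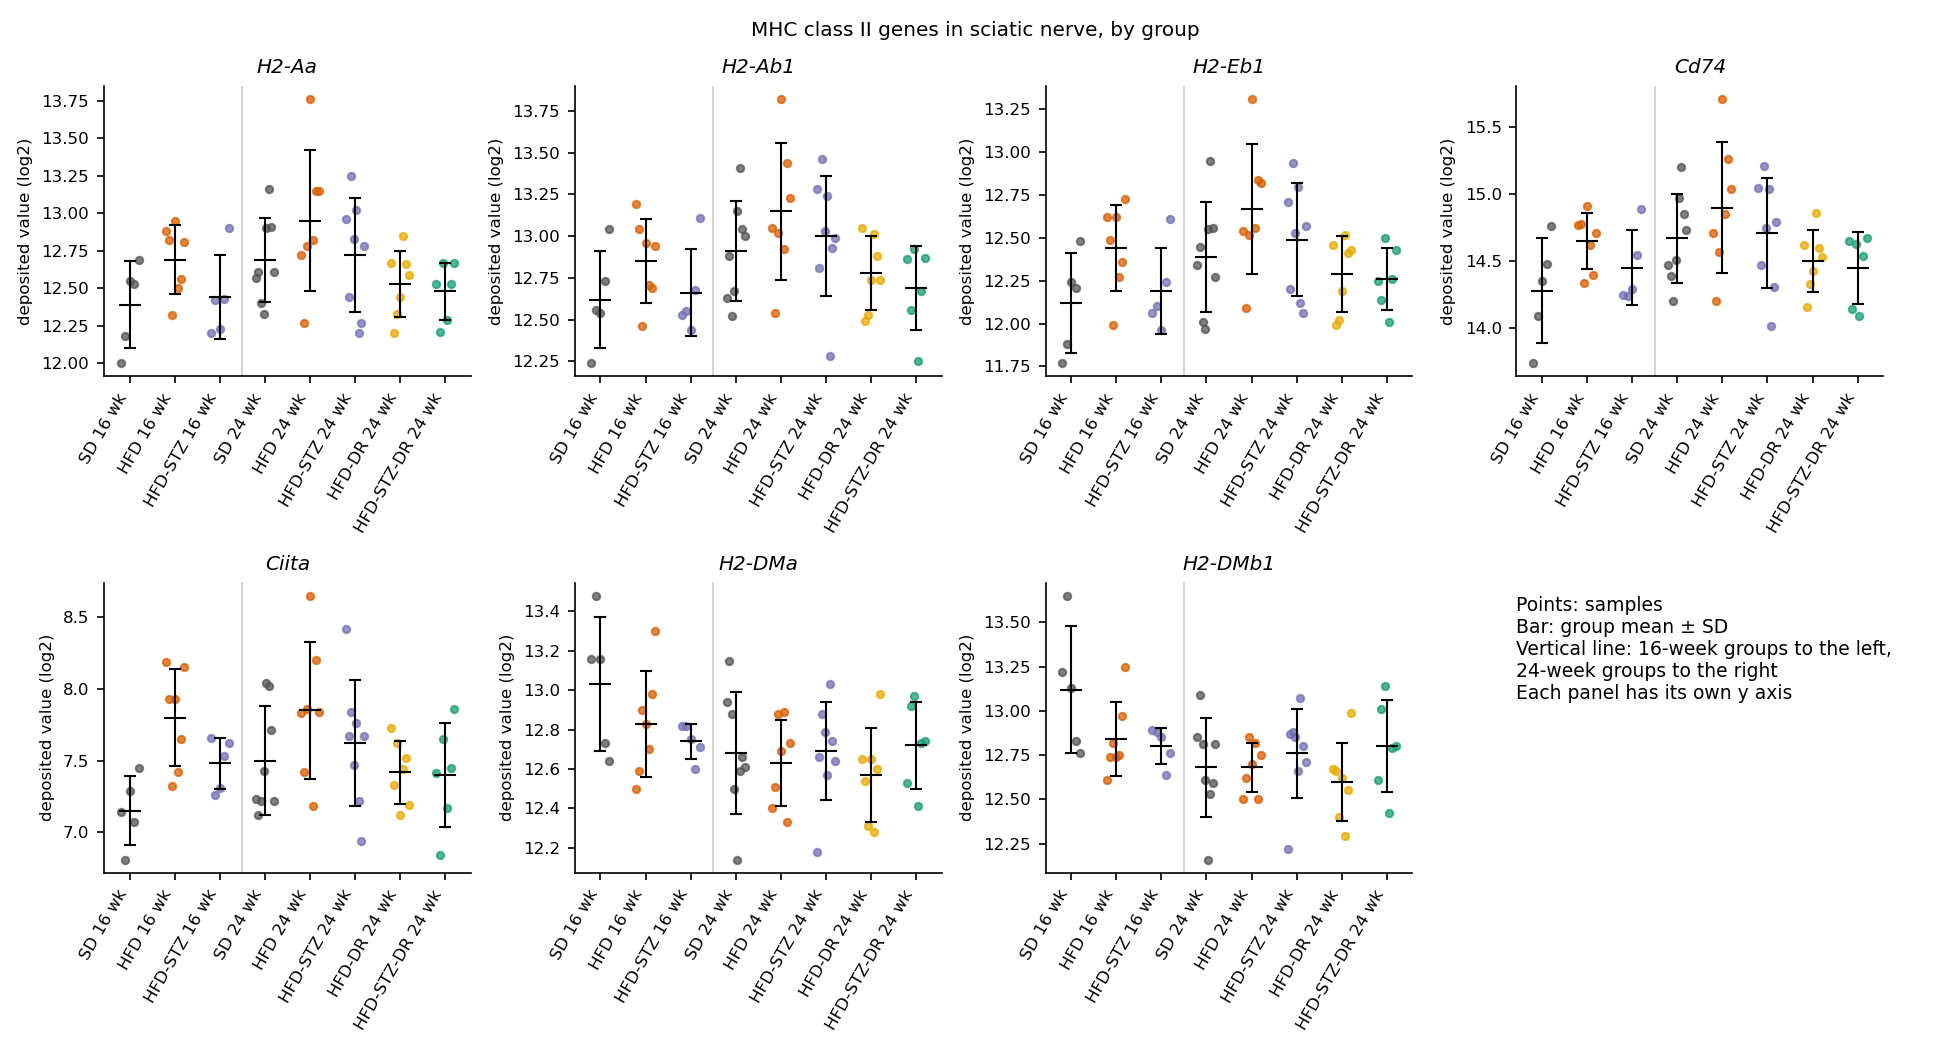
Deposited log2 values (y axis, a separate scale in each panel) of the 7 MHC class II genes in the 53 SCN samples by group (x axis), with points for samples and bars for the group mean and SD. All groups overlap for the chains, *Cd74* and *Ciita*, the highest single value of each is an HFD sample at 24 weeks, and the highest values of *H2-DMa* and *H2-DMb1* are those of an SD sample at 16 weeks.

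All 7 genes were expressed in every sample, and their levels varied within a narrow band. *H2-Ab1* ranged from 12.24 to 13.82 over the 53 samples, *H2-Aa* from 12.00 to 13.76 and *H2-Eb1* from 11.77 to 13.31. *Cd74* ranged from 13.74 to 15.71 and *Ciita* from 6.81 to 8.65. *H2-DMa* ranged from 12.14 to 13.48 and *H2-DMb1* from 12.16 to 13.65. The SD within groups, pooled over the 8 groups, was 0.24 to 0.36 on the log2 scale, smallest for *H2-DMb1* and largest for *Ciita*. In bulk tissue, more or fewer cells that express a gene and more or less RNA of it per cell cannot be told apart.

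In order of group means, *H2-Ab1* was highest in HFD mice at 24 weeks (13.15 ± 0.41, SD, n = 7), then in HFD-STZ (13.00 ± 0.36, n = 8) and SD mice (12.91 ± 0.30, n = 8) of that age. HFD mice at 16 weeks followed (12.85 ± 0.25, n = 7), then HFD-DR (12.78 ± 0.22, n = 7) and HFD-STZ-DR mice (12.69 ± 0.25, n = 6). The lowest means were those of HFD-STZ (12.66 ± 0.26, n = 5) and SD mice (12.62 ± 0.29, n = 5) at 16 weeks. Each step between neighbours in this order was smaller than the SD of either group. The order for *Ciita* began with both HFD groups, at 7.85 ± 0.48 at 24 weeks and 7.80 ± 0.34 at 16 weeks, and ended with SD mice at 16 weeks (7.15 ± 0.24). H2-DM had another order. *H2-DMb1* was highest in SD mice at 16 weeks (13.12 ± 0.36) and lowest in HFD-DR mice (12.60 ± 0.22), and *H2-DMa* was likewise highest in SD mice at 16 weeks (13.03 ± 0.34) and lowest in HFD-DR mice (12.57 ± 0.24).

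The first question was whether prolonged HFD changed class II in the nerve. At 24 weeks no member passed the test between HFD and SD mice (0 of 7, limma, adjusted p-values 0.614 to 0.996), where 0.121% of all genes tested were called. The chains, *Cd74* and *Ciita* had higher means in HFD mice, by 0.23 to 0.36 on the log2 scale with SEs of 0.16 to 0.21. The median difference of the 7 members was 0.24, beside 0.01 for all genes. *H2-Eb1* had values of 11.97, 12.40 and 12.95 (lowest, median and highest) in SD mice and 12.09, 12.56 and 13.31 in HFD mice, and 12 of the 15 samples lay where the groups overlap. The difference was 0.28 ± 0.16 (SE, adjusted p = 0.614 by limma, p = 0.145 by a 2-sided exact permutation test). *H2-DMa* differed by -0.05 ± 0.13 and *H2-DMb1* by -0.00 ± 0.11. The single HFD sample with the highest value of the chains, *Cd74* and *Ciita*, replicate 4, weighed on these differences, which were 0.11 to 0.23 without it. Macrophage markers had a mean log2 value of 11.01 in HFD and 10.77 in SD mice (p = 0.376, exact permutation test), with 10 of 10 markers higher and sample means of 10.17 to 11.97 and 10.27 to 11.38. Dendritic cell markers were higher by 0.56 (p = 0.0326) and B cell markers by 0.59 (p = 0.0233), both by exact permutation tests. With the macrophage marker mean as a covariate the 5 differences were 0.05 to 0.20.

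At 16 weeks, *Ciita* showed the widest separation between HFD and SD mice of any member. In the 5 SD samples its values were 7.14, 6.81, 7.29, 7.07 and 7.45, and in the 7 HFD samples 8.19, 7.93, 7.32, 7.93, 7.42, 7.65 and 8.15. The groups met only between 7.32 and 7.45, where 3 of the 12 samples lay. The difference of 0.65 ± 0.18 had an unadjusted p of 0.00268 and an adjusted p of 0.392 by limma, so it did not pass the test over all genes, and the 2-sided exact permutation test gave an unadjusted p of 0.0101. No member was called in this comparison (0 of 7), beside 0.00557% of all genes. *Cd74* differed by 0.37 ± 0.16, *H2-Eb1* by 0.32 ± 0.14, *H2-Aa* by 0.30 ± 0.14 and *H2-Ab1* by 0.23 ± 0.14. *H2-DMa* and *H2-DMb1* had lower means in HFD mice, by -0.20 ± 0.16 and -0.28 ± 0.15, and without SD replicate 2 by -0.09 and -0.14. The macrophage marker mean differed by 0.12 (p = 0.505, exact permutation test), with 6 of 10 markers higher. The adipocyte marker mean differed by 2.42 (p = 0.0126), with 6 of 6 higher, at sample means of 11.90 to 14.25 in HFD and 8.36 to 12.54 in SD mice, and the dendritic cell marker mean by 0.58 (p = 0.0379), both by exact permutation tests. The means of lymphocyte markers differed as well, those of T cells by 0.52 (p = 0.00253) and those of B cells by 0.76 (p = 0.0227), by the same exact tests. With the adipocyte marker mean as a covariate the *Ciita* difference was 0.37 ± 0.23 and those of the chains and *Cd74* were -0.17 to -0.03, and with the macrophage marker mean they were 0.60 ± 0.17 and 0.15 to 0.26. The change of the HFD difference from 16 to 24 weeks was called for no member (0 of 7, lowest adjusted p of 1, with 0% of all genes called), and for *Ciita* it was -0.29 ± 0.29.

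At 24 weeks the 7 differences between HFD-STZ and SD mice were 0.00 to 0.13 with SEs of 0.12 to 0.20, with no member called (0 of 7, adjusted p-values 0.902 to 0.997 by limma) beside 0.0336% of all genes. At 16 weeks, *Ciita* was at 7.66, 7.26, 7.31, 7.53 and 7.62 in the 5 HFD-STZ samples, of which 3 were above every SD sample. The difference was 0.32 ± 0.15 (adjusted p = 0.586 by limma, unadjusted p = 0.0476 by a 2-sided exact permutation test). *H2-DMa* and *H2-DMb1* differed by -0.29 ± 0.14 and -0.31 ± 0.15, and without SD replicate 2 by -0.18 each. The differences of *H2-Aa*, *H2-Ab1*, *H2-Eb1* and *Cd74* were 0.05, 0.04, 0.08 and 0.16. T cell markers differed by 0.51 (p = 0.00794, exact permutation test). None of the 7 was called at 16 weeks, and 0% of all genes were. Between HFD-STZ and HFD mice, the chains, *Cd74* and *Ciita* differed by -0.32 to -0.19 at 16 weeks and by -0.23 to -0.14 at 24 weeks, with 0 of 7 members and 0% of all genes called at either age. Without HFD replicate 4 the differences at 24 weeks were -0.10 to -0.03. With all samples of both groups, B cell markers differed at 24 weeks by -0.73 (p = 0.0028, exact permutation test).

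**Figure D2:**
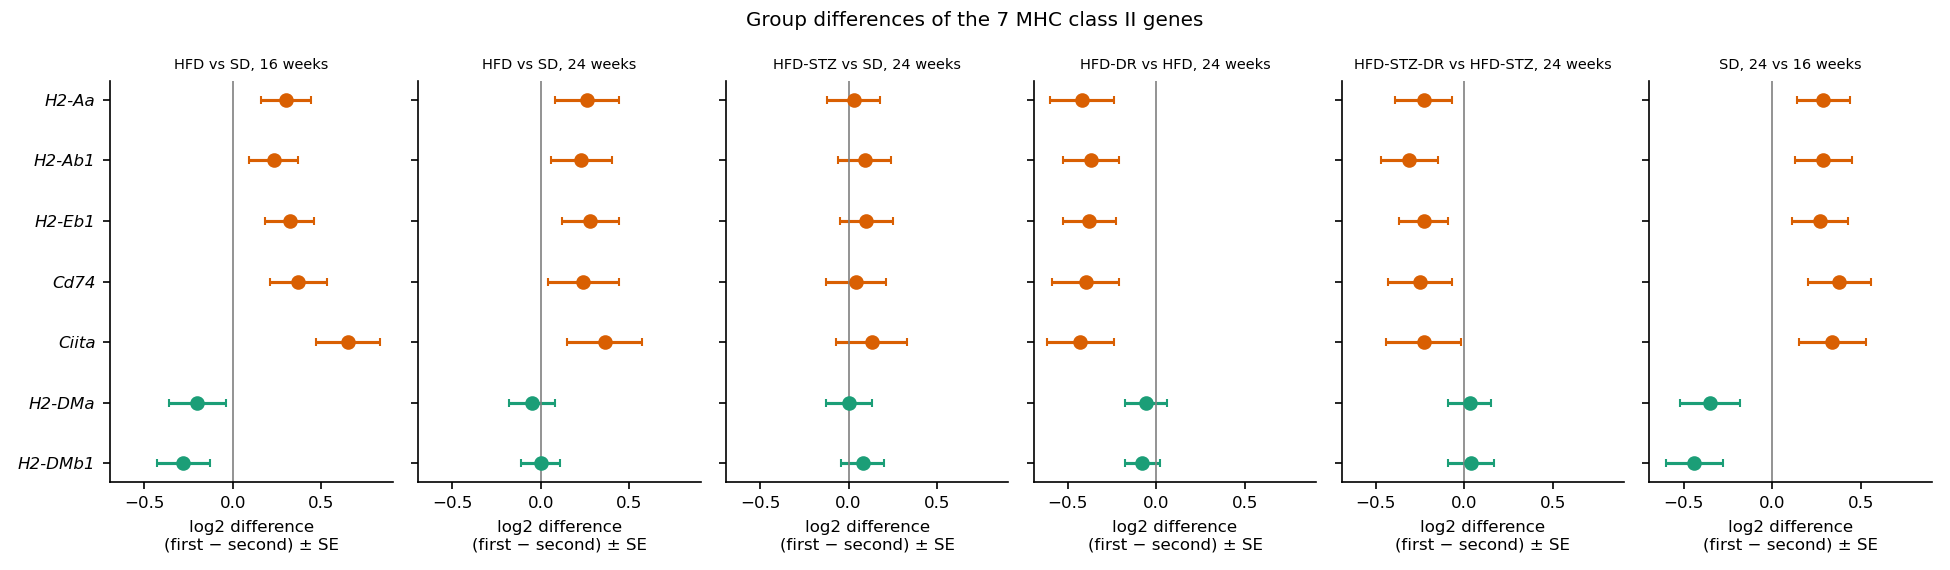
Differences of the group means (x axis, log2 scale, first group minus second, bars show the SE of the limma fit) for the 7 members (y axis) in 6 comparisons, with the chains, *Cd74* and *Ciita* in orange and *H2-DMa* and *H2-DMb1* in green. Differences of the first 5 genes lie at 0.23 to 0.65 for HFD against SD mice at 16 weeks and at -0.43 to -0.37 for HFD-DR against HFD mice, with no member past the adjusted threshold.

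The next question was whether returning to the control diet moved these genes. The chains, *Cd74* and *Ciita* had lower means in HFD-DR than in HFD mice, by -0.43 to -0.37 with SEs of 0.15 to 0.19. *Ciita* was at 7.83, 7.42, 7.86, 8.65, 7.18, 8.20 and 7.84 in the 7 HFD samples and at 7.73, 7.33, 7.62, 7.12, 7.44, 7.52 and 7.19 in the 7 HFD-DR samples. Of the HFD samples 5 were above every HFD-DR sample and 2 were within the range of that group. The difference was -0.43 ± 0.19 (unadjusted p = 0.0372 and adjusted p = 0.725 by limma, p = 0.0501 by a 2-sided exact permutation test).

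*H2-Eb1* differed between HFD-DR and HFD mice by -0.38 ± 0.15 (adjusted p = 0.666 by limma, unadjusted p = 0.0297 by a 2-sided exact permutation test), with values of 12.54, 12.09, 12.52, 13.31, 12.56, 12.84 and 12.82 in HFD mice and 12.46, 11.99, 12.02, 12.19, 12.52, 12.41 and 12.43 in HFD-DR mice. Apart from the HFD sample at 12.09, no HFD sample was below the highest HFD-DR sample. *H2-Aa* differed by -0.42 ± 0.18, *Cd74* by -0.40 ± 0.19 and *H2-Ab1* by -0.37 ± 0.16. The genes of H2-DM were closer to 0, at -0.06 ± 0.12 for *H2-DMa* and -0.08 ± 0.10 for *H2-DMb1*. The median difference of the members was -0.38, beside -0.00 for all genes. An unadjusted p under 0.05 was reached by 5 of 7 members and by 6.72% of all genes, but these 5 genes varied together between samples of a group, so they are not separate measurements. After adjustment 0 of 7 members passed, and 0.0108% of all genes did. Without HFD replicate 4 the 5 differences were -0.30 to -0.26.

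Macrophage and dendritic cell markers had lower means in HFD-DR mice too. The macrophage marker mean was 10.57 in HFD-DR and 11.01 in HFD mice (p = 0.0874, exact permutation test), with 10 of 10 markers lower and sample means of 10.29 to 10.85 against 10.17 to 11.97. The dendritic cell marker mean differed by -0.62 (p = 0.0152) and the adipocyte marker mean by -1.22 (p = 0.0798), both by exact permutation tests. Of the adipocyte markers 5 of 6 were lower, and 1 was higher with an unadjusted p under 0.05 by limma. The skeletal muscle marker mean was higher in HFD-DR mice, by 2.77 (p = 0.0746, exact permutation test). All 6 of 6 muscle markers were higher, beside 49.4% of all genes. With the macrophage marker mean as a covariate the differences of the chains and *Cd74* were -0.10 to -0.03, and that of *Ciita* was -0.18 ± 0.17.

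HFD-STZ-DR mice had lower means than HFD-STZ mice for the same 5 genes, by -0.31 to -0.23 with SEs of 0.14 to 0.21 and no call (0 of 7, adjusted p-values 0.817 to 0.981 by limma), beside 0.084% of all genes. *H2-Ab1* was at 12.28, 13.01 and 13.46 (lowest, median and highest) in HFD-STZ mice and at 12.25, 12.76 and 12.92 in HFD-STZ-DR mice, a difference of -0.31 ± 0.16 (p = 0.0952 by a 2-sided exact permutation test). The ranges of the groups overlapped, with 7 of the 14 samples in the overlap. *H2-DMa* and *H2-DMb1* differed by 0.03 ± 0.12 and 0.04 ± 0.13. The macrophage marker mean differed by -0.27 (p = 0.211) and the adipocyte marker mean by -2.24 (p = 0.00466), both by exact permutation tests. With the adipocyte marker mean as a covariate, the differences of all 7 members changed sign. Their values are given below, and the cause was not tested. The effect of DR did not pass a test of its difference between the models for any member (0 of 7, lowest adjusted p of 1), with 0% of all genes called, and the differences of the effects were 0.05 to 0.21 with SEs of 0.17 to 0.29. Set against SD mice of the same age, the 7 members differed in HFD-DR mice by -0.16 to -0.08 and in HFD-STZ-DR mice by -0.22 to 0.12, and between HFD-STZ-DR and HFD-DR mice by -0.09 to 0.20, with 0 of 7 members and 0% of all genes called in each.

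Between the ages, the members differed in opposite directions. In SD mice, the chains, *Cd74* and *Ciita* had higher means at 24 than at 16 weeks, by 0.27 to 0.38 with SEs of 0.15 to 0.19. *H2-DMa* and *H2-DMb1* had lower means at 24 weeks, by -0.35 ± 0.17 and -0.44 ± 0.16. In SD mice at 16 weeks *H2-DMb1* was at 13.22, 13.65, 13.13, 12.83 and 12.76, and at 24 weeks the lowest, median and highest values were 12.16, 12.71 and 13.09. At 16 weeks 3 of the 5 samples were above every sample of 24 weeks. The adjusted p of *H2-DMb1* was 0.437 by limma and the unadjusted p 0.0326 by a 2-sided exact permutation test, and no member was called (0 of 7), with 0% of all genes called. The mean of the Schwann cell markers differed in the same comparison by -0.28 (p = 0.0342) and that of macrophage markers by 0.35 (p = 0.145), both by exact permutation tests. T cell markers differed by 0.45 (p = 0.00155) and adipocyte markers by 1.87 (p = 0.042, 6 of 6 higher), by the same exact tests. In HFD mice the chains and *Cd74* were higher at 24 than at 16 weeks by 0.23 to 0.29 and *Ciita* by 0.06 ± 0.21, while *H2-DMa* and *H2-DMb1* differed by -0.20 ± 0.12 and -0.16 ± 0.09 (0 of 7 called, beside 0.0654% of all genes). Without HFD replicate 4 of 24 weeks the chains and *Cd74* differed by 0.12 to 0.18 and *Ciita* by -0.08. With all HFD samples of both ages, Schwann cell markers differed by -0.22 (p = 0.0466, exact permutation test). In HFD-STZ mice the first 5 genes differed by 0.15 to 0.34 and *H2-DMa* and *H2-DMb1* by -0.05 ± 0.11 each (0 of 7 called, beside 0% of all genes). Schwann cell markers differed there by -0.25 (p = 0.0389, exact permutation test).

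The spread between samples of the same group held the clearest structure. For this, each value was set against the mean of its group, and correlations were taken over the 53 samples. *H2-Ab1* varied with the other chains and the invariant chain, with Pearson's r = 0.94 for *Cd74* (Spearman's rho = 0.91), 0.92 for *H2-Aa* (rho = 0.91) and 0.90 for *H2-Eb1* (rho = 0.90), and less tightly with *Ciita* (r = 0.71, rho = 0.73). In each of these 4 relations the permutation p was 1e-05, the smallest that 100000 draws can give, and 2.1e-05 after adjustment over the 15 relations of *H2-Ab1* examined. Without the 2 samples farthest from the median of *H2-Ab1*, r was 0.93, 0.90, 0.89 and 0.69. With values also centred on the 8 runs of consecutive library numbers in the sample names (3 to 8 samples each), r was 0.94, 0.92, 0.90 and 0.69. The chains are neighbours in the MHC on chromosome 17, whereas *Cd74* lies at chr18:60803848-60812652 and *Ciita* at chr16:10480059-10528418, both on the plus strand of GRCm38.

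The genes of H2-DM had negative r with those of the molecules it loads. Between *H2-Ab1* and *H2-DMa*, r was -0.29 (rho = -0.30, permutation p = 0.054, adjusted p = 0.062 for r) and without the 2 farthest samples -0.31, and with *H2-DMb1* r was -0.29 (rho = -0.35, permutation p = 0.048, adjusted p = 0.06) and -0.30. By Spearman's rho both relations passed (adjusted p = 0.047 and 0.019 by permutation), but neither did under any of the 3 alternatives tried, with values also centred on library runs, with each sample centred on its median, or in the samples of 24 weeks alone (adjusted p = 0.054 to 0.31). Against all 5 other members, the r of *H2-DMa* and *H2-DMb1* were -0.43 to -0.12. *H2-DMa* and *H2-DMb1*, which encode the alpha and the beta chain of the same heterodimer, had r = 0.96 with each other (rho = 0.94, and r = 0.95 without the 2 samples farthest from the median of *H2-DMa*). The relations of *H2-DMa* were looked at after this pattern had been seen, and are given as a description with no test. The promoters printed above for *H2-DMb1* and *H2-Aa* both match GNAAC with TGATTGG, the first as GTAAC and the second as GCAAC. The r of these 2 genes was -0.27, and a relation of promoter letters to r was not tested.

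**Figure D3:**
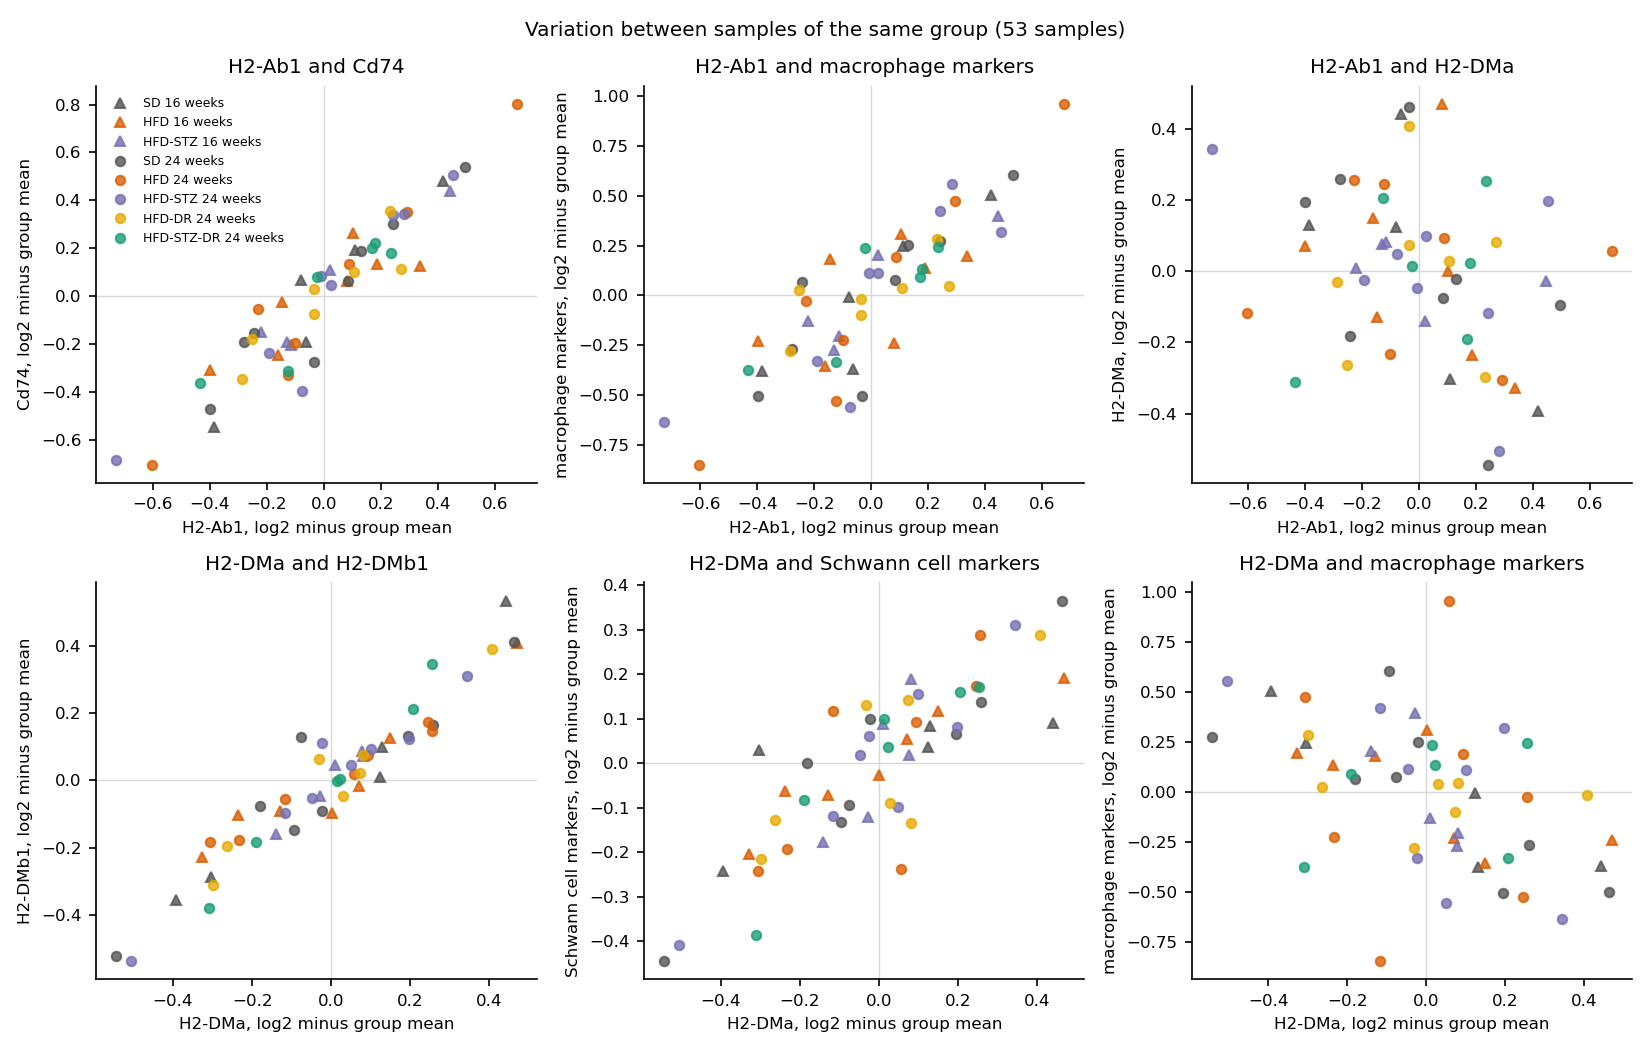
Values of 53 samples minus the mean of their group (both axes, log2 scale) for 6 pairs of genes or marker means, with triangles for 16 weeks, circles for 24 weeks and colours for groups. *H2-Ab1* rises along a line with *Cd74* (r = 0.94) and macrophage markers (r = 0.84), and *H2-DMa* with *H2-DMb1* (r = 0.96) and Schwann cell markers (r = 0.83), while *H2-Ab1* and *H2-DMa* form a loose cloud (r = -0.29).

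Cell type markers divided the members the same way. *H2-Ab1* varied with the mean of 10 macrophage markers (r = 0.84, rho = 0.83, permutation p = 1e-05, adjusted p = 2.1e-05, and r = 0.82 without the 2 farthest samples). Its r was 0.76 with dendritic cell markers (rho = 0.73, adjusted p = 2.1e-05 by permutation, 0.72 without the 2 samples), 0.64 with adipocyte markers (rho = 0.66, adjusted p = 2.1e-05, 0.61) and 0.57 with endothelial cell markers (rho = 0.62, adjusted p = 7.5e-05, 0.54). T cell markers (r = 0.50, rho = 0.47, adjusted p = 0.0012) and fibroblast markers (r = 0.50, rho = 0.54, adjusted p = 0.0011) gave lower values, with r = 0.45 and 0.48 without the 2 samples. With Schwann cell markers r was -0.46 (rho = -0.47, adjusted p = 0.0024, and -0.43 without the 2 samples). No relation passed for B cell markers (r = -0.15, rho = -0.17, adjusted p = 0.34) or skeletal muscle markers (r = -0.14, rho = -0.10, adjusted p = 0.36). With values centred on the library runs as well, r was 0.84 for macrophage, 0.76 for dendritic cell, 0.64 for adipocyte and -0.38 for Schwann cell markers. Among members, *Cd74* had the highest r with macrophage markers (0.95), followed by *H2-Aa* (0.87), *H2-Ab1*, *H2-Eb1* (0.81) and *Ciita* (0.71).

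*H2-DMa* and *H2-DMb1* had r = 0.83 and 0.82 with the mean of the 6 Schwann cell markers, among them *Mbp*, *Sox10*, *S100b* and *Prx*, and rho was 0.80 for *H2-DMa*. Their r with macrophage markers was -0.46 and -0.48, with dendritic cell markers -0.58 and -0.60, and with endothelial cell markers -0.72 and -0.70. With values centred on library runs the r of *H2-DMa* with Schwann cell markers was 0.80, with each sample centred on its median 0.88, and in the samples of 24 weeks alone 0.87. The values share normalization within a sample, and bulk values do not show which cells carried the RNA.

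**Figure D4:**
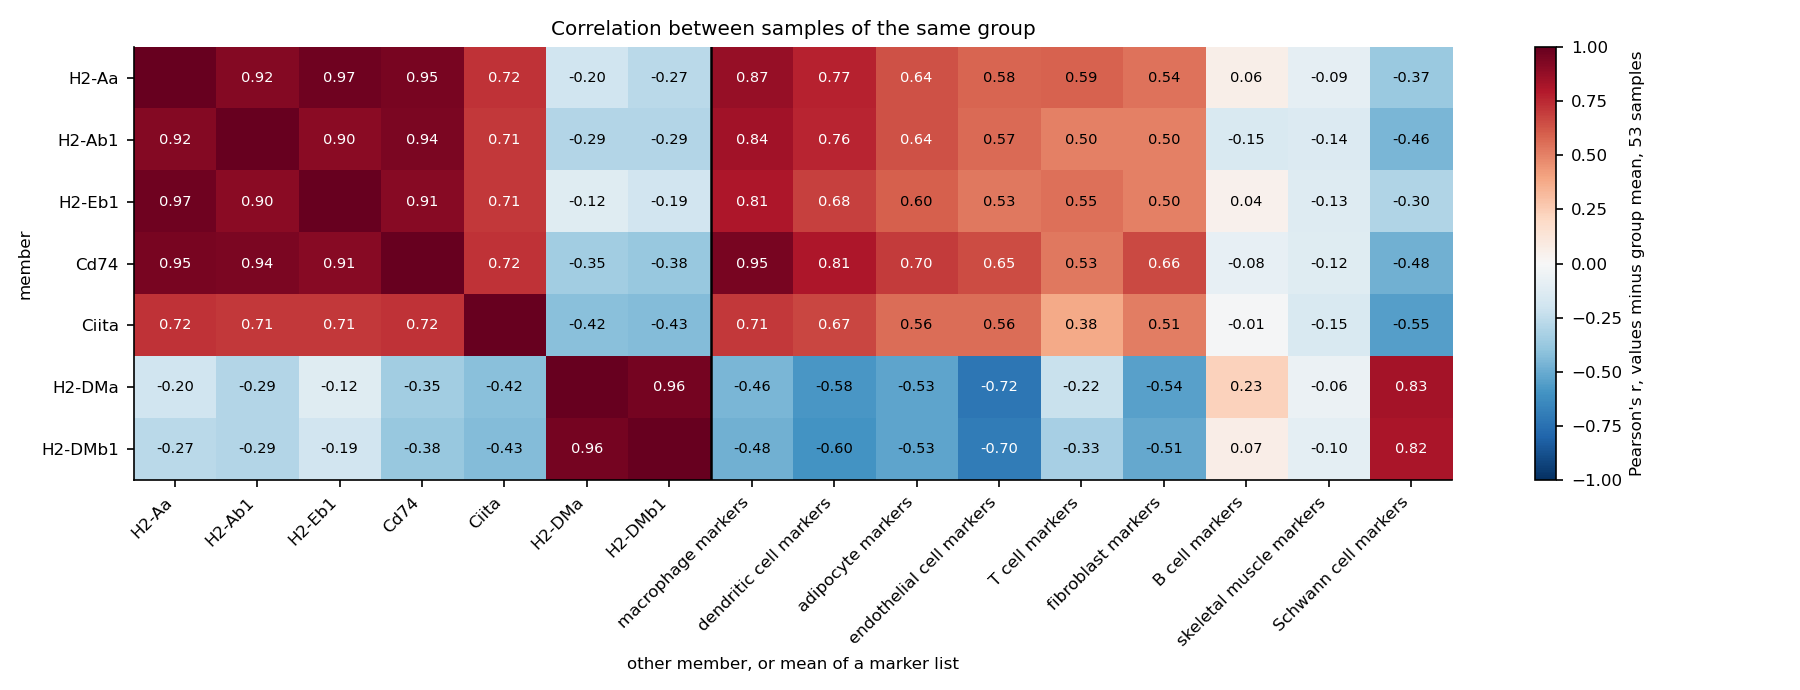
Pearson's r over 53 samples, from values minus group means, between each member (rows) and the other members or the mean of each cell type marker list (columns), with colour from blue (-1) to red (1). The 5 upper rows are red for macrophage markers (0.71 to 0.95) and the lower 2 rows, *H2-DMa* and *H2-DMb1*, for Schwann cell markers (0.83 and 0.82).

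The genes most like *H2-Ab1* outside the members, by r among 18069 genes, were *Irf8* (r = 0.88), a transcription factor of myeloid cells, *C1qb* (0.87), a chain of complement C1q and itself one of the macrophage markers, *Selplg* (0.86), a ligand of selectins, *Spi1* (0.85), which encodes the myeloid factor PU.1, and *Tnfaip8l2* (0.85). Among all these genes *Cd74* had rank 1, *H2-Aa* 2, *H2-Eb1* 3, *Ciita* 151, *H2-DMa* 14637 and *H2-DMb1* 14664. By the same measure, applied after the values had been seen, the genes most like *H2-DMa* besides *H2-DMb1* were *Cmtm5* (0.96), *Fxyd3* (0.95), *Cdkn1a* (0.95), *Tmem50a* (0.95) and *Metrnl* (0.95).

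Of the proteases and the reductase that prepare antigen and remove the invariant chain, 5 of 6 had r above 0.5 with *H2-Ab1* and 0 of 6 with *H2-DMa*, beside 7.52% and 11% of all genes ranked. *Ctss*, the cathepsin that trims the invariant chain in professional antigen-presenting cells, had r = 0.80 with *H2-Ab1*, *Ctsb* 0.71 and *Ctsd* 0.67, and the thiol reductase *Ifi30* 0.40. In HFD-DR against HFD mice all 6 had lower means and an unadjusted p under 0.05, which 4.57% of all genes had in that direction, and none passed after adjustment. *Ctss* was at 11.52 ± 0.76 in HFD and 10.70 ± 0.26 in HFD-DR mice, a difference of -0.82 ± 0.27 (adjusted p = 0.585 by limma), and *Ctsl* differed by -0.43 ± 0.15 (adjusted p = 0.639). In HFD against SD mice at 24 weeks 6 of 6 had higher means, as did 52% of all genes, with 0 calls, *Ctss* by 0.56 ± 0.31. In HFD-STZ-DR against HFD-STZ mice 5 of 6 had lower means, where 51.9% of all genes had higher ones, with 0 calls, *Ctsd* by -0.35 ± 0.11 (adjusted p = 0.318) and *Ctsl* by -0.47 ± 0.15 (adjusted p = 0.358).

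Of the factors that bind class II promoters or act on *Ciita*, 15 of 16 passed the filter on low values. None was called in the 4 comparisons of HFD or HFD-STZ with SD mice and of each DR group with its model at 24 weeks. Of all genes, 0.0108% to 0.121% were called there. With *H2-Ab1*, 4 of 15 had r above 0.5, beside 7.52% of all genes ranked. These were *Irf8*, *Spi1*, *Ifngr1* (r = 0.75), a chain of the interferon gamma receptor, and *Irf1* (0.61). The subunits of RFX and NF-Y, which occupy the X and Y boxes, had r of -0.21 to 0.37 with *H2-Ab1*. With *H2-DMa* their r was -0.79 (*Rfx5*) to 0.61 (*Rfxank*). *Rfxank* was the 1 of the 15 factors with r above 0.5 with *H2-DMa*, beside 11% of all genes ranked. *Ifng* itself, the main inducer of *Ciita*, was at 0.20 to 1.47 in all samples and was left out by the filter. In HFD-DR against HFD mice *Spi1* differed by -0.56 ± 0.24 (adjusted p = 0.716 by limma) and *Ifngr1* by -0.26 ± 0.12 (adjusted p = 0.737).

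Of 5 other class II genes, 2 passed the filter on low values. *H2-Ob*, a chain of the inhibitor of H2-DM, had a median of 5.13 and *H2-DMb2* of 5.81, and both had r = 0.47 with *H2-Ab1* and -0.28 and -0.22 with *H2-DMa*. *H2-DMb2* shares sequence with *H2-DMb1*. *H2-Oa*, *H2-Eb2* and *H2-Ea-ps* did not pass the filter on low values. In HFD-DR against HFD mice *H2-DMb2* differed by -0.53 ± 0.27 (adjusted p = 0.781 by limma). Of the costimulatory and turnover genes, 4 of 7 had r above 0.5 with *H2-Ab1* and 0 of 7 with *H2-DMa*, beside 7.52% and 11% of all genes ranked. Those 4 were the costimulatory *Cd40* (0.62) and *Cd86* (0.55), the inhibitory ligand *Cd274* (0.61) and *March1* (0.54), a ubiquitin ligase that removes class II from the surface. In HFD-DR against HFD mice *Cd86* differed by -0.52 ± 0.23 (adjusted p = 0.73 by limma) and *Cd80* by -0.33 ± 0.15 (adjusted p = 0.726 by limma). In that comparison 6 of 7 genes of the list had lower means, where 49.4% of all genes had higher ones. Of the 7, 0 were called, beside 0.0108% of all genes.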

How the data were processed

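Sciatic nerve RNA of 53 samples was measured by RNA-seq. Per the labels and the study's methods, the authors filtered reads, aligned them with HISAT2 to GRCm38 (mm10) and counted them with featureCounts, with versions not given in the sources used here. The labels and the methods name different RNA extraction and library kits. Each deposited file gives a log2 value for every gene, whose normalization by the authors is not given in the sources used here. They are neither counts nor FPKM, so count models (the authors used DESeq2) were not run. Reads per sample are unknown from these files, so no counting error is given.

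The members, gene lists and marker lists were chosen with earlier results of these data known. A gene entered a comparison if its log2 values averaged 3.32 or more (10 on the linear scale) over the samples compared and none was above 22 (25 genes have such a value). The test was limma 3.58.1 (R 4.3.3), run on the groups compared only, with a trended variance prior. The Benjamini-Hochberg adjustment covered all genes tested, and an adjusted p under 0.05 was a call. There were 14 comparisons of 2 groups and 3 interactions. Permutation tests were exact over samples, 2-sided, and not adjusted. Those of marker means were run for 9 marker lists in each of the 14 comparisons of 2 groups, and only some are given. Correlations used values minus group means and 100000 shuffles within groups (scipy 1.17.1, numpy 2.4.6, Python 3.11.15). A marker mean is the mean log2 value of its list. Values of some single genes of the lists are not reported here. The members were named throughout. Of each pathway list at most 2 genes a direction with the smallest p were named per comparison of 24 weeks, and genes named only for their r were chosen after their values were seen, apart from the 5 most like *H2-Ab1*. The fit and the correlations were tested on simulated data. Groups came from the sample labels, and replicate numbers are in order of listing only.

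Alternatives were no filter, the minimum in every sample, all 8 groups in 1 fit without and with library runs, robust variances, no trend, each sample centred on its median, adipocyte or macrophage marker means as a covariate, and leaving out each sample. The *H2-DMa* relations were added after seeing the data. Figures were drawn with matplotlib 3.10.9.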

Additional observations from a re-analysis of the deposited data

How the results depend on the processing

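No member was called in any of the 17 comparisons under any alternative or with any sample left out (0 of 7 in each), and the lowest adjusted p of a member in any of them was 0.0799 (*H2-DMb1*, SD mice at 24 against 16 weeks, all 8 groups with library runs, log2 difference -0.47), by limma. By Pearson's r the 15 relations of *H2-Ab1* kept their side of the threshold in every alternative. By Spearman's rho those with *H2-DMa* (adjusted p = 0.047) and *H2-DMb1* (0.019) were lost in each of the 3, at 0.21 and 0.21 centred on library runs, 0.082 and 0.054 centred on sample medians, and 0.31 and 0.12 at 24 weeks alone, by permutation. A difference is given here as turned when its sign changed and it exceeded its SE before or after. This happened for 37 differences, none of them called, all with a marker mean as a covariate. With adipocyte markers, HFD against SD mice at 16 weeks became -0.09 (*H2-Aa*), -0.17 (*H2-Ab1*), -0.03 (*H2-Eb1*), -0.13 (*Cd74*), 0.24 (*H2-DMa*) and 0.12 (*H2-DMb1*). HFD-STZ against SD mice became -0.12 (*H2-Ab1*) at 16 weeks and -0.14 (*H2-Aa*) and -0.15 (*Cd74*) at 24 weeks. HFD-STZ-DR against HFD-STZ mice became 0.20 (*H2-Aa*), 0.05 (*H2-Ab1*), 0.10 (*H2-Eb1*), 0.28 (*Cd74*), 0.40 (*Ciita*), -0.25 (*H2-DMa*) and -0.23 (*H2-DMb1*). The age difference became -0.01 (*H2-Aa*) and -0.05 (*H2-Eb1*) in SD and -0.09 (*Cd74*) in HFD-STZ mice, and the change of the HFD difference with age 0.28 (*H2-Aa*), 0.25 (*H2-Eb1*) and 0.24 (*Cd74*). With macrophage markers, HFD-STZ against HFD mice at 24 weeks became 0.02 (*H2-Aa*), 0.03 (*H2-Eb1*) and 0.08 (*Cd74*). HFD-STZ-DR mice became 0.01 (*Ciita*) against HFD-STZ, 0.00 (*H2-Aa*), 0.02 (*H2-Ab1*), 0.10 (*Cd74*) and 0.22 (*Ciita*) against SD, and 0.08 (*H2-Aa*) and 0.12 (*Cd74*) against HFD-DR mice. HFD-DR against SD mice became 0.01 (*Cd74*), and the age difference in HFD mice -0.07 (*H2-Aa*), -0.03 (*H2-Eb1*), -0.10 (*Cd74*) and -0.20 (*Ciita*). The cause was not tested, and a marker mean takes out both cell content and any change of the markers themselves. No paired analysis was possible because the labels give no replicate numbers. The library runs were used as a covariate instead. Reads per gene are unknown, so depth sets no stated limit.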

Other observations

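MHC class I presentation, by which cells show peptides from their own proteins, varied with class II between samples of the same group. Of 10 class I genes, 7 had r above 0.5 with *H2-Ab1* and 0 with *H2-DMa*, beside 7.52% and 11% of all genes ranked. The r with *H2-Ab1* was 0.82 for *Tapbp*, which encodes tapasin, 0.81 for *H2-D1* and 0.78 for *H2-K1*, which encode class I heavy chains, and 0.44 for *B2m*, their shared light chain. In HFD-STZ-DR against HFD-STZ mice 10 of 10 had lower means, where 51.9% of all genes had higher ones. In that comparison macrophage markers differed by -0.27 (p = 0.211) and adipocyte markers by -2.24 (p = 0.00466), by exact permutation tests, and their part in the result was not tested. *H2-K1* was at 13.86 ± 0.22 (SD, n = 8) in HFD-STZ and 13.36 ± 0.08 (n = 6) in HFD-STZ-DR mice, a difference of -0.50 ± 0.10 that missed the threshold (adjusted p = 0.0713 by limma), and *H2-D1* differed by -0.54 ± 0.13 (adjusted p = 0.136).

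In none of the 56 sets of values, 7 genes in 8 groups, did a single sample stand outside its group by Dixon's test.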
